A study of Mus musculus with 9 samples.

Results

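The Sox genes encode transcription factors that share an HMG box, the domain with which they bind and bend DNA. The SOX factor genes examined in muscle stem cells were 10: the SoxC genes Sox4 and Sox11, the SoxD genes Sox5, Sox6 and Sox13, the SoxE genes Sox8 and Sox9, and the SoxF genes Sox7, Sox17 and Sox18. Members were found by the gene name that the array design gives to each non-control probe, with no measured value involved, which gave 16 probes for the 10 genes among 55681 probes for 36406 gene names in all. Of these, 12 probes for 7 genes were well above background on at least 3 of the 9 arrays and were tested, and the 4 probes of the SoxF genes were not.

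SoxC factors act in progenitor cells and in differentiating neurons. SoxD factors have no activation domain of their own. Sox5 and Sox6 act with Sox9 on cartilage genes, and Sox6 is also known to repress slow fibre genes in skeletal muscle. Sox8 and Sox9 are known in satellite cells, where they counter myogenic differentiation, and Sox9 is best known as the driver of cartilage formation. SoxF factors act in endothelial cells and, in the case of Sox17, in endoderm.

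The arrays measured RNA of satellite cells, which regenerate muscle fibres, sorted for integrin alpha-7 and CD34 and against CD31, CD45, CD11b and Sca1. The Bmi1-deficient group (KO) had 6 arrays and the wild type group (WT) 3 arrays, and the labels describe all mice as male FVB animals aged 2 months. Bmi1 belongs to a Polycomb repressive complex that silences developmental genes. Neither the allele nor the number of mice behind a sample was available here. P-values therefore cover the spread between these samples alone, and that spread may be technical.

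Pairs of KO arrays with the same first number in the description (replicates 1 and 4, 2 and 5, 3 and 6) correlated at 0.994 to 0.996 over probes, against 0.962 to 0.979 for the 33 other pairs of arrays, and were averaged to KO samples 1, 2 and 3. KO replicate 1 is called wild type in its genotype field but KO in its title, and was kept as KO. Both Bmi1 probes were well above background on all arrays. The first gave a normalised log2 signal of 0.58, 0.71 and 0.48 in KO samples 1 to 3, against 0.40, 0.61 and 0.48 in WT samples 1 to 3. The second gave 0.00, -0.31 and -0.20 in KO against -0.30, -0.50 and -0.33 in WT. Bmi1 signal was thus not lower in the KO samples (differences of 0.10 and 0.21, limma adjusted p = 0.864 and 0.699), and without the position of the deletion these probes do not check the labels. Cdkn2a, a known target of Bmi1 repression, gave -0.92, -0.57 and -0.82 in KO against -4.28, -4.23 and -3.64 in WT (3.28 ± 0.22, limma adjusted p = 0.0207), so every sample fell on the side of its label. All 12 satellite cell markers listed, Pax7 and Itga7 among them, were well above background on every array. Their median difference between KO and WT was 0.09. Pax7 differed by 0.02, while Sdc4, with the smallest p of the list, lay 0.75 higher in KO with its groups apart (limma adjusted p = 0.141). The summed signal of the list lay at 123 to 128 in the KO samples against 106 to 120 in the WT samples, in units of each array's 75th percentile.

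Levels below are log2 of the background-subtracted signal minus the array's 75th percentile, so 0 is the signal that 75% of spots do not exceed, and a difference of 1 is a doubling of signal. They compare samples within a probe, not one probe with another, since probes differ in how strongly they bind. The probes that the results turn on are given here with the first 30 of their 60 bases, 5′ to 3′, as the scanner files hold them, with their mm9 position and strand. Capitals mark each GGA triplet, because 1 of the Sox5 probes is built of them.
Sox11 A_52_P160955, chr12:28019541-28019600, minus strand: aaccattctgtattgaaactcttgctataa
Sox11 A_55_P2094721, chr12:28020087-28020146, minus strand: gcaGGAgtttttcacagaGGAatacatttg
Sox5 A_51_P500318, chr6:143781520-143781579, minus strand: ttacaagcaaaaacgtcatcaagaagaaga
Sox5 A_55_P2088765, chr6:143787982-143788041, minus strand: ctgggcccatgggcaaattcaatcagatgc
Sox5 A_55_P2156905, chr6:143776945-143776971, minus strand: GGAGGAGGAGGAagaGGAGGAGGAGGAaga
Sox6 A_52_P475356, chr7:122615418-122615477, minus strand: ttgtatttgccatgtacaattctgaattac
Both Sox11 probes were designed on the same RefSeq transcript. The third Sox5 probe holds 16 GGA triplets in its 60 bases. It has no pyrimidine, a property of 0.0413% of all probes, and the design places only 27 of its bases on the genome. Exon and UTR positions of the probes were not analysed here.

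No Sox probe passed the test between KO and WT. By limma, 0 of 12 had a Benjamini-Hochberg adjusted p under 0.05, where 0.0489% of all 42983 probes tested did (0.0465% higher and 0.00233% lower in KO). At an unadjusted p under 0.05 there were 5 of 12 (3 higher and 2 lower in KO), where 10.7% of all probes had one (6.49% higher and 4.18% lower). The 3 KO samples did not overlap the 3 WT samples in 7 of 12 probes, 4 higher and 3 lower, where 16.5% of all probes were apart (8.58% higher and 7.94% lower). The median difference of the 12 probes was -0.14, with -0.01 over all probes. All 5 SoxC probes, which belong to 2 genes, lay lower in KO, 4 of 5 SoxD probes lay higher, and the 2 SoxE probes lay on opposite sides. No difference between subgroups was tested. The smallest difference among the 21 probes that limma called was 1.69, so no probe with a difference as small as those of the Sox probes was called.

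**Figure D1:**
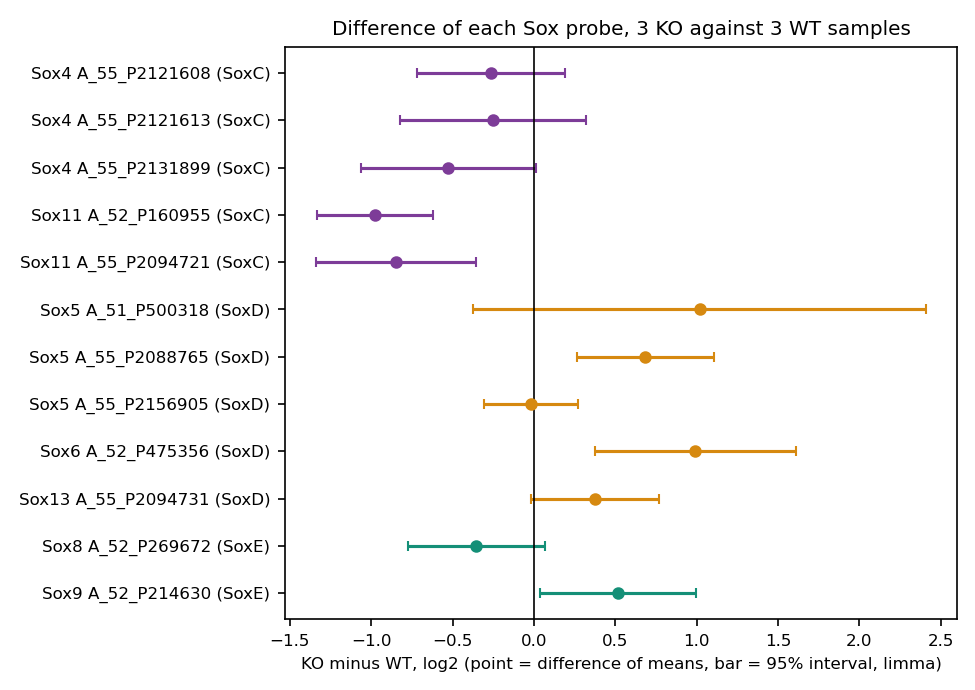
Difference between the means of 3 KO and 3 WT samples (horizontal axis, log2) for each of the 12 Sox probes tested, grouped from top to bottom as SoxC, SoxD and SoxE, with 95% intervals from limma. The 5 SoxC probes lie left of 0, the Sox6 and Sox9 probes and 1 Sox5 probe have intervals right of 0, and the Sox5 probe of GGA triplets lies at 0; no probe passed after adjustment.

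Sox11 had the smallest p of the family. At its probe A_52_P160955 the log2 signal was -3.28, -2.92 and -2.99 in the KO samples, against -2.13, -1.996 and -2.13 in the WT samples. Every KO sample lay below every WT sample, and the WT samples lay close together. KO signal was 0.507 times that of WT (log2 difference -0.98 ± 0.15, SE), with a limma adjusted p of 0.108. The second probe, A_55_P2094721, gave -0.55, -0.22 and -0.32 in KO, against 0.12, 0.66 and 0.68 in WT. Its groups were apart as well, with a difference of -0.85 ± 0.20 and a limma adjusted p of 0.229. Within slides 1 and 2 of the arrays the first probe differed by -1.02 and -0.99 and the second by -0.80 and -0.98. With slide as a block they differed by -1.001 and -0.89. Each slide held 1 array of each of the 3 KO samples, so the slides share their KO samples and are not separate tests. Slide 2 held 1 WT array, so its differences have no error. Both limits hold for all values within slides given below.

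The related Sox4, which is expressed in many progenitor cells, lay lower in KO by less, and no probe of it separated the groups. At A_55_P2121608 (chr13:29040826-29040885) the signal was 2.09, 2.35 and 2.62 in KO against 2.52, 2.82 and 2.52 in WT, a difference of -0.26 ± 0.19. A_55_P2121613 (chr13:29042856-29042915) gave 0.60, 1.05 and 1.32 in KO against 1.51, 1.04 and 1.16 in WT, a difference of -0.25 ± 0.23. A_55_P2131899 (chr13:29044482-29044541) gave -2.25, -1.63 and -1.85 in KO against -1.33, -1.67 and -1.17 in WT, a difference of -0.53 ± 0.22. KO sample 1 was the lowest of the 6 samples at each of the 3 Sox4 probes, and at both Sox11 probes too. Without it the Sox4 differences were -0.13, -0.058 and -0.36, in the order given, and those of Sox11 -0.87 and -0.76. The limma adjusted p of the Sox4 probes was 0.703, 0.786 and 0.478. Within slides 1 and 2 they differed by -0.13 and -0.50, by -0.33 and -0.08, and by -0.55 and -0.36, in the order given.

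Genes listed as SoxC targets or as companions in neural progenitors went both ways. Of 8, 4 lay higher and 4 lower in KO (median difference 0.07), and limma called 0. Their summed signal was lower in KO, at 20.6 to 28.4 against 28.5 to 31.6 in WT. Stmn1, with the highest signal of the 8, was the only one with its groups apart, where 7.94% of all probes were apart and lower. The 3 with the smallest p were the tubulin-binding Stmn1 (-0.65, limma adjusted p = 0.394), the microtubule protein Dcx (1.25, 0.478) and the neuronal tubulin Tubb3 (0.36, 0.595).

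**Figure D2:**
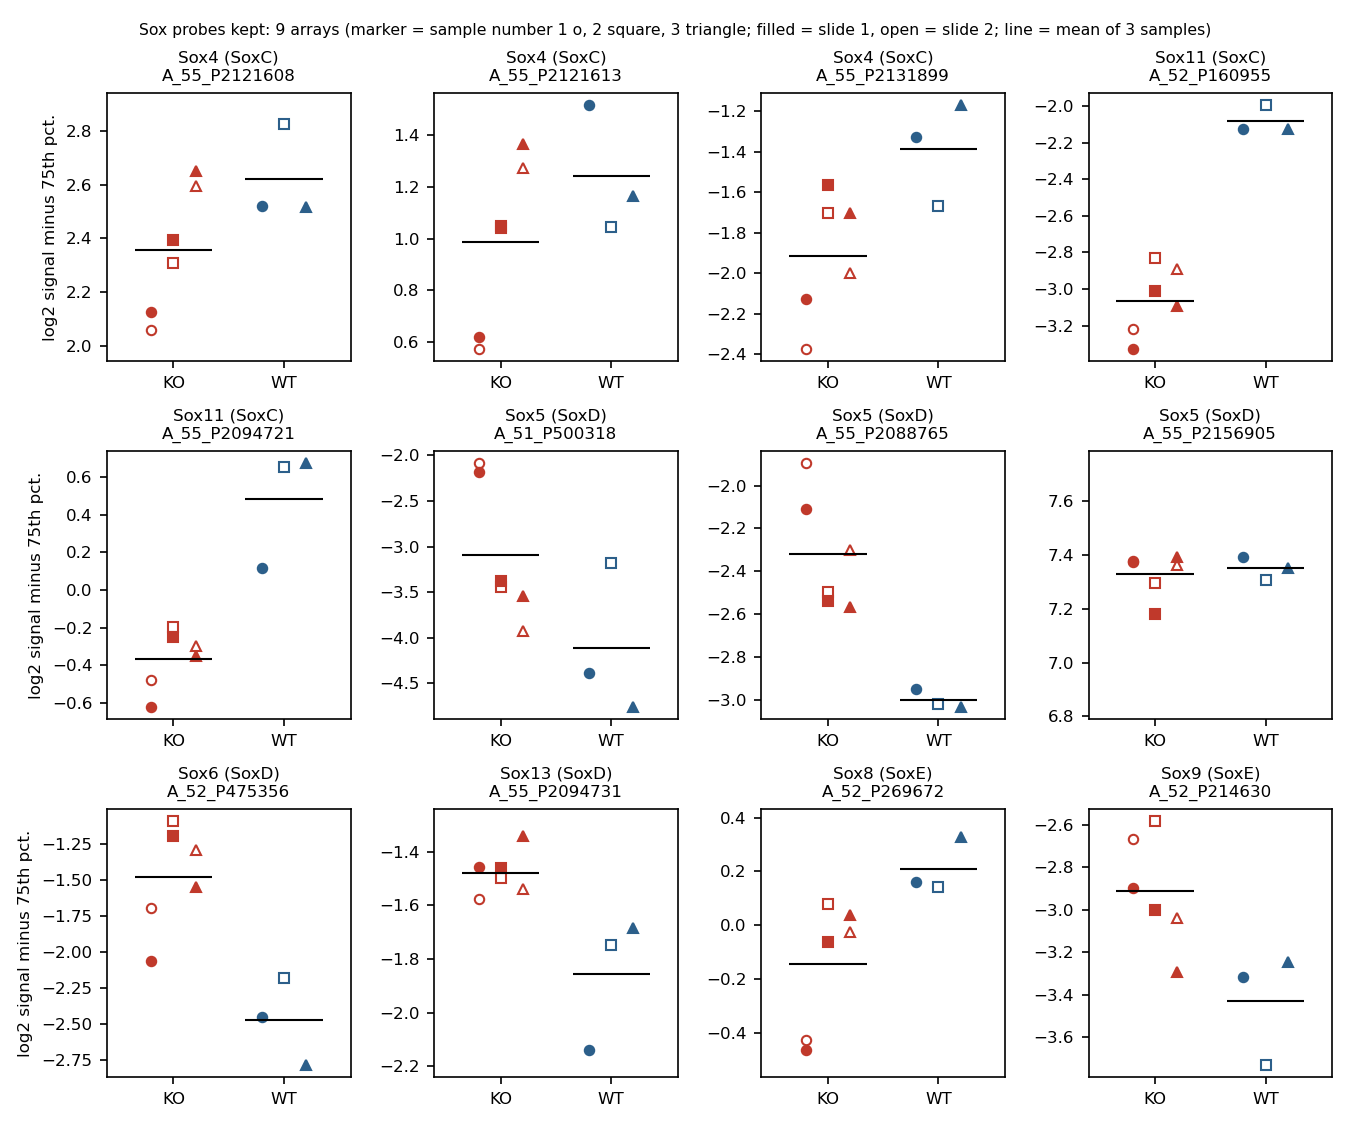
Normalised log2 signal (vertical axis, minus the array's 75th percentile; each panel has its own range) of the 12 Sox probes tested on the 6 KO and 3 WT arrays, with marker shape for the sample number, filled markers for slide 1, open markers for slide 2 and a line for the mean of 3 samples. KO and WT stand apart at both Sox11 probes. The 2 arrays of KO samples 1, 2 and 3 differ by a median of 0.11, 0.10 and 0.20 over the 12 probes, and by at most 0.42 (Sox9, KO replicates 2 and 5).

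Among the SoxD genes, the 3 Sox5 probes, each designed on a different transcript record, disagreed. A_55_P2088765 gave -2.003, -2.52 and -2.44 in KO against -2.95, -3.02 and -3.04 in WT. The KO samples all lay above the WT samples, 1.61-fold on average (0.68 ± 0.17, limma adjusted p = 0.25). A_51_P500318 gave -2.13, -3.41 and -3.74 in KO against -4.39, -3.18 and -4.76 in WT, a difference of 1.02 ± 0.57 (limma adjusted p = 0.612). Here KO sample 1 stood highest and WT sample 2 lay above KO samples 2 and 3, so the groups overlapped. That probe differed by 1.54 within slide 1 and by 0.03 within slide 2, which holds the highest WT sample, while A_55_P2088765 differed by 0.59 and 0.79.

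The third Sox5 probe, A_55_P2156905, the one of GGA triplets, showed little spread. It read 7.38, 7.24 and 7.38 in KO against 7.39, 7.31 and 7.35 in WT. Its SD over the 6 samples, 0.058, was the smallest of the 16 Sox probes. The groups overlapped, and the difference was -0.02 (95% interval -0.31 to 0.27). Before normalisation its signal was 171812 or more on every array. Whether this probe binds Sox5 transcripts was not tested. It is the brightest Sox5 probe, so an analysis with 1 probe per gene, the brightest, reads Sox5 from it alone.

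Sox6, the repressor of slow fibre genes, gave -1.88, -1.14 and -1.42 in KO against -2.46, -2.18 and -2.79 in WT. All KO samples lay above all WT samples, 1.99-fold on average (0.99 ± 0.25, limma adjusted p = 0.254). Slide 1 gave a difference of 1.02 and slide 2 one of 0.82, and a fit that blocks on slide gave 0.92. Of 10 slow fibre genes listed, 6 lay higher and 4 lower in KO, with a median difference of 0.14 and 0 called by limma. The smallest p among them were those of the slow troponin Tnnt1 (0.39, limma adjusted p = 0.513), the slow-type myosin Myh7b (-0.72, 0.574) and the muscle LIM protein Csrp3 (1.93, 0.671), the last with KO sample 1 far from all others (0.83, against -3.14 and -3.96 in the other KO samples, with -4.12, -3.42 and -4.51 in WT).

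Sox13 (A_55_P2094731, chr1:135279099-135279158), a SoxD factor known from T cells, gave -1.52, -1.48 and -1.44 in KO against -2.14, -1.75 and -1.68 in WT. The groups were apart, with KO sample 1 and WT sample 3 nearest to each other. The difference was 0.38 ± 0.16 (limma adjusted p = 0.485), with 0.49 within slide 1 and 0.21 within slide 2.

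The SoxE genes went opposite ways. Sox8 (A_52_P269672, chr17:25703094-25703153) gave -0.44, 0.01 and 0.01 in KO against 0.16, 0.14 and 0.33 in WT. KO lay below WT in all samples, by -0.35 ± 0.17 on average (limma adjusted p = 0.547), with KO sample 1 the lowest. Without that sample the difference was -0.20. Within slides 1 and 2 it differed by -0.41 and -0.27.

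Sox9 (A_52_P214630, chr11:112648809-112648868) was printed in 10 spots on each array, which measures the noise within an array but not that between arrays. Its signal was -2.78, -2.79 and -3.17 in KO against -3.32, -3.73 and -3.24 in WT. The groups were apart, narrowly so between KO sample 3 and WT sample 3, and KO was 1.43-fold WT on average (0.52 ± 0.19, limma adjusted p = 0.429). The unadjusted limma p of 0.0379 depended on the scaling. Under the other scalings tried, the deposited value table among them, it was 0.0787 to 0.113, with differences of 0.27 to 0.44. The SD over the spots of an array was 0.06 to 0.14, after leaving out 1 marked spot of KO replicate 4 and 2 of KO replicate 6. Between arrays the spread was larger: the 2 arrays of KO sample 2 differed by 0.42. Samples of 1 group had an SD of 0.22 in KO and 0.26 in WT (n = 3 each). The difference was 0.22 within slide 1 and 0.97 within slide 2, where the lowest WT array lies.

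**Figure D3:**
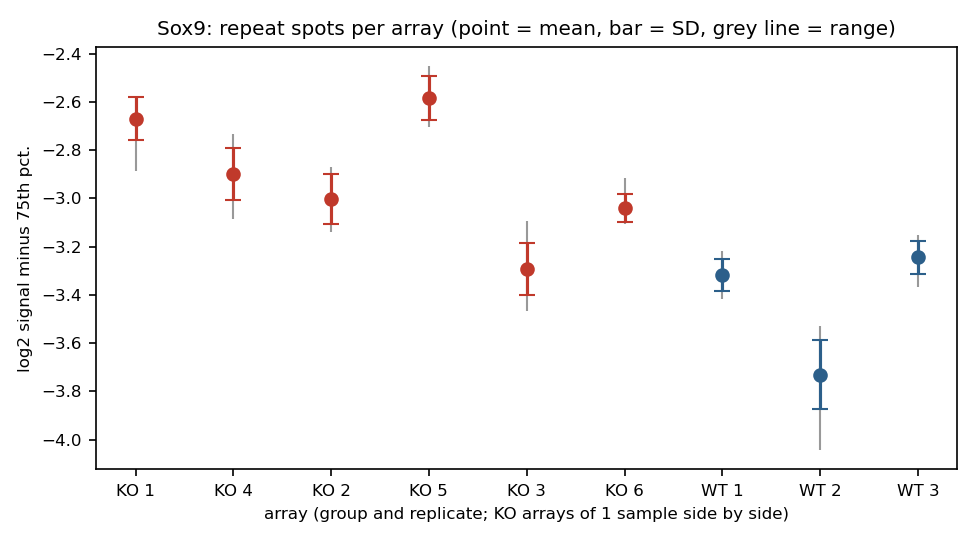
Sox9 signal of the repeat spots of probe A_52_P214630 on each array (horizontal axis; vertical axis log2 signal minus the array's 75th percentile), with the mean as a point, the SD over spots as a bar and the range as a grey line, for 6 KO and 3 WT arrays. The SD over spots is at most 0.14, while KO replicate 3 (-3.29) lies among the WT arrays and KO replicates 2 and 5, of 1 sample, stand apart at -3.002 and -2.58.

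Genes of cartilage that Sox9 acts on with Sox5 and Sox6 were detected in part. Of 16 listed, 10 could be tested, and limma called 0. All 10 lay higher in KO (median difference 1.15), where 20651 of all 42983 probes tested did. Hapln1, 1 of the 10, was well above background on 3 KO and 0 WT arrays. A gene bright only in KO passes the filter on dim probes more easily than 1 bright only in WT, since 6 of 9 arrays are KO. Of the 6 not tested, the cartilage collagen Col2a1 and Matn3 were well above background on 2 KO and 0 WT arrays, Matn1 and Ucma on 0 KO arrays and 1 WT array, and Col11a1 and Cnmd on 0 arrays. Col9a2, a chain of the minor cartilage collagen IX, gave -0.34, -1.002 and -0.90 in KO against -2.38, -3.16 and -2.76 in WT (2.02 ± 0.27, limma adjusted p = 0.0931). Comp, a matrix protein of cartilage and tendon, gave -1.60, 0.74 and 3.18 in KO against -2.50, -3.87 and -3.09 in WT (limma adjusted p = 0.315). Comp was highest in KO sample 3 and lowest in KO sample 1. Col9a3 gave -3.39, -4.40 and -4.09 in KO against -4.91, -4.96 and -4.73 in WT (0.91 ± 0.27, limma adjusted p = 0.317).

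Fibroblast, tendon, glial and mural markers mostly lay higher in the KO samples as well, while myeloid markers did not. Over all 42983 probes tested, 20651 lay higher and 22332 lower in KO. The fibroblast list (12 of 12 tested) had a median difference of 0.91, with 10 higher and 2 lower and 6 higher at an unadjusted p under 0.05 by limma. Of all probes tested, 6.49% were higher at that p. Pdgfra, 1 of the 6, was well above background on 6 KO and 0 WT arrays. The list's summed signal was 173 to 192 in KO against 127 to 136 in WT. Its KO samples 1, 2 and 3 exceeded the mean of WT by a median of 1.06, 0.23 and 0.90. For the tendon list (6 of 6 tested, 5 higher) the median was 1.09 and the summed signal 8.11 to 13.0 in KO against 5.39 to 6.41 in WT. For the glial list (11 of 12 tested, 9 higher) the median was 0.76 and the summed signal 67.4 to 69.4 in KO against 52.5 to 62.2 in WT. Mural markers (9 of 9 tested, all 9 higher) had a median of 0.63 and a summed signal of 64.1 to 68.4 in KO against 53.4 to 59.8 in WT. Myeloid markers (6 of 7 tested, 2 higher and 4 lower) had a median of -0.04. Their summed signal was 120 to 133 in KO against 123 to 143 in WT. Most of that sum came from Itgam alone, which encodes CD11b (log2 signal 6.85 to 7.001 in KO against 6.88 to 7.11 in WT). Itgam was read from the brightest of its 3 probes, and whether that probe binds Itgam transcripts was not tested. The sum therefore says little about the other myeloid markers or about the amount of Itgam RNA. Limma called 0 genes of these 5 lists. The lowest adjusted p in them was that of the mural marker Pdgfrb, with its groups apart (1.35 ± 0.12, limma adjusted p = 0.0567). Next among mural markers were Cspg4 and Abcc9 (0.67 and 1.07, limma adjusted p = 0.177 and 0.282). Among the genes with the smallest p were Col1a1, Mfap5 and Col1a2 among fibroblast markers (1.91, 1.44 and 1.23; limma adjusted p = 0.0987, 0.0999 and 0.111), Mbp and Foxd3 among glial ones (1.38 and 1.55; adjusted p = 0.0931 and 0.159), and Thbs4, Fmod and Mkx among tendon ones (1.34, 3.003 and 0.26; adjusted p = 0.16, 0.428 and 0.694). The part of such cells in the Sox differences was not tested. In sorted bulk samples, a change in the number of cells of a type and a change in RNA per cell cannot be told apart.

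SoxF transcripts were near or below the detection limit. The probes of Sox7 (chr14:64569419-64569478) and both of Sox17 (chr1:4481038-4481097 and chr1:4481503-4481562) were well above background on 0 of 6 KO and 0 of 3 WT arrays. Sox18 (A_51_P472274, chr2:181404789-181404848) was well above background on 2 arrays, KO replicates 3 and 6, which are both of KO sample 3. It read -4.84 and -5.26 there, as compared to -8.42 to -6.50 on the other 4 KO arrays and -8.10, -7.74 and -6.93 on the WT arrays. The signals at these 4 probes elsewhere include surrogate values that the scanner software sets for spots at background, so no fold and no test is given for SoxF.

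**Figure D4:**
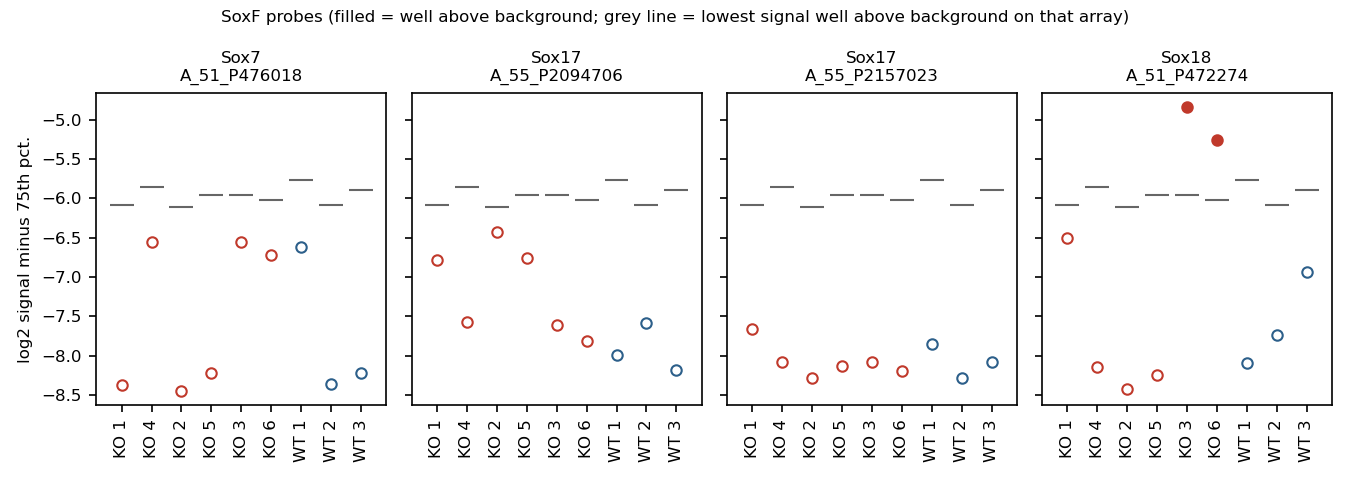
Normalised log2 signal (vertical axis, minus the array's 75th percentile) of the 4 SoxF probes on each array (horizontal axis, 6 KO then 3 WT), filled where well above background, with a grey line for the lowest signal well above background on that array (-6.11 to -5.77). Only Sox18 in KO replicates 3 and 6 lies above the line.

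Endothelial markers, in contrast, were mostly detected. Of 14 listed, 13 could be tested and all 13 lay higher in KO (median difference 1.12), where 20651 of all 42983 probes tested did. By limma, 4 of the 13 had an unadjusted p under 0.05, where 6.49% of all probes were higher at that p. After adjustment limma called 0. The filter favours genes bright only in KO here too. Robo4 was well above background on 4 KO and 0 WT arrays, Tie1 on 4 KO and 1 WT, and Ptprb on 5 KO and 1 WT. The list's summed signal was 5.89 to 8.97 in KO against 4.26 to 5.45 in WT. The 3 with the smallest p were the receptor Flt1, the adhesion molecule Cdh5 and the clotting factor carrier Vwf. Cdh5 gave -1.72, -2.50 and -2.36 in KO against -4.24, -3.34 and -3.44 in WT (1.48 ± 0.32, limma adjusted p = 0.202). Flt1 differed by 1.27 (0.186) and Vwf by 0.73 (0.384). Relative to the mean of WT, the list's median was 1.77, 0.29 and 1.28 in KO samples 1, 2 and 3, against -0.26, 0.33 and -0.14 in WT samples 1, 2 and 3. The part of endothelial cells in the Sox18 signal of KO sample 3 was not tested.

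The other Sox genes listed showed little difference. Of 8, Sox1, Sox12, Sox14, Sox15 and Sox21 could be tested, and Sox2, Sox3 and Sox30 were well above background on 0 arrays. The 5 tested differed by 0.01 to 0.10, and limma called 0, with 0 at an unadjusted p under 0.05. Sox15, which is known from satellite cells and muscle regeneration, gave -4.65, -5.11 and -4.22 in KO against -4.99, -3.89 and -5.33 in WT, a difference of 0.08 ± 0.43. Sox12, the remaining SoxC gene, gave -0.85, -1.05 and -0.97 in KO against -1.35, -0.42 and -1.40 in WT. It differed by 0.10 ± 0.28, and its WT samples lay on both sides of all KO samples.

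Signal patterns most like those of the Sox probes were looked for over the 9 arrays among 16767 other named genes, with KO arrays of 1 sample sharing their RNA. For Sox11 (A_52_P160955) the nearest were the WD repeat gene Wdr53, Crybg1 and the adhesion molecule Nectin1, with Pearson's r of 0.970, 0.968 and 0.957. For Sox5 (A_51_P500318), the tested Sox probe with the largest SD over the 6 samples (0.93), they were the growth factor Bmp4, Myorg and the interleukin receptor Il1r1, with r of 0.982, 0.981 and 0.980. These 3 genes differed between KO and WT by 0.38, 0.58 and 1.12.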

How the data were processed

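Per the labels' protocols, RNA of sorted cells was amplified by whole transcriptome amplification and labelled with Cy3. The authors deposited the intensity of each spot from 9 1-colour Agilent arrays (62976 spots). Per the file headers, Feature Extraction 10.7.3.1 subtracted background, corrected spatial trends and set surrogates for dim spots. The authors also deposited a table of log2 values. Its method is unknown here. It matched a normexp correction (offset 50) with quantile normalization (r of 0.99997 or more over spots) and served as an alternative. Its direction and lack of centring follow from that match.

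Here, log2 of the processed signal minus each array's 75th percentile was used. Spots marked as outliers were left out, repeat spots averaged, and 35 empty values, none in a Sox probe, replaced by that probe's average on the remaining arrays. A minimum of 3 of 9 arrays well above background left 42983 probes. KO arrays of 1 sample were averaged, and 3 KO were compared with 3 WT samples by lmFit and eBayes of limma 3.58.1 (R 4.3.3), with Benjamini-Hochberg adjustment over all probes kept at a threshold of 0.05 and 4 residual and 1.99 prior degrees of freedom. Slide was tried as a block and within each slide (3 KO and 2 WT arrays on slide 1, 3 KO and 1 WT on slide 2). The alternatives are under the closing section. Gene symbols outside the Sox probes were updated through a RefSeq table (GRCm38, names only), with 26982 of 55681 probes keeping the file's name, and list genes are read from their brightest kept probe. Between 71.9% and 75.8% of spots per array were well above background and 0 were saturated; the number of arrays limits precision. WT and KO samples of the same number did not deviate together (r of -0.03, 0.02 and 0.02).

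The Sox genes, the lists and the tests were chosen with earlier results of these data known. The text names every probe of the 10 Sox genes, the other Sox genes listed, up to 3 genes of each list with the smallest p (chosen by rule, with Cdkn2a, Pax7, Itga7, Itgam and the untested cartilage genes added after their values were seen), and the 3 genes nearest in pattern to the Sox probe with the smallest p and to the tested one that varied most. One gene that this rule names is not reported here.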

Additional observations from a re-analysis of the deposited data

How the results depend on the processing

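The limma count of Sox probes passing was 0 in the analysis above (5 at an unadjusted p under 0.05) and stayed 0 under normexp with the 75th percentile or quantiles, the deposited value table, median centring, quantiles of the processed signal, other filters, 1 probe per gene, slide as a block, slide 1 alone, KO sample 1 from KO replicate 4 alone and each sample left out (0 to 0). It was 2 with all 9 arrays as separate samples (both Sox11 probes, limma adjusted p = 0.00498 and 0.0204), 1 with sample as a random block (Sox11 A_52_P160955, 0.0429) and 1 with slide added as a fixed block (the same probe, 0.0257). Those fits take degrees of freedom from arrays, so their p may be too small. Over the alternatives the adjusted p of that probe ranged from 0.00498 to 0.281. With the replicate block, which pairs WT and KO samples that share only a number, 0 Sox probes and 0 of all probes passed, against 21 of all probes without it. The setting without the filter on dim probes tested 16 Sox probes, the 4 SoxF probes with their values at background included.

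Counts over all probes were 282, 218 and 208 under the 2 normexp settings and the deposited table, 62 for probes well above background on all 9 arrays, 40 with 1 probe per gene, 1639, 610 and 364 in the 3 fits of separate arrays, 1 with slide as a block, 0 within slide 1 and 0 to 3 with a sample left out. The share of higher calls was 20 of 21 above, against 239 of 282 under normexp and 1208 of 1639 with separate arrays. Of 12 Sox probes, 11 kept their sign in every setting run. The Sox5 probe A_55_P2156905 changed sign, with -0.02 above against 0.043 under normexp with quantiles, 0.044 in the deposited table and 0.047 under quantiles of the processed signal. With samples left out it ranged from -0.042 to 0.027 (0.0016 without WT replicate 1, 0.027 without KO sample 2); the cause was not tested. Sox probes whose samples were apart numbered 6 to 8 under the other scalings, against 7 above; this comparison was added after seeing the data. Sox5 A_51_P500318 ranged from 0.03 within slide 2 to 1.54 within slide 1. Signal near background limits all SoxF probes.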
